A study of Rattus norvegicus with 6 samples.

Results

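Probes for RefSeq non-coding transcripts were examined in H9c2 cells, a rat heart-derived myoblast line, after hypoxia and reoxygenation (H/R). They were the non-control probes of a rat lncRNA and mRNA array whose accession starts with NR_, the RefSeq prefix for curated non-coding transcripts, or XR_, the prefix for predicted ones. There were 1729 of them among 24684 probes on the array, 27 NR_ and 1702 XR_, with 1 probe per accession. The control group (labelled control, normoxic per the series' design text) and the H/R group held 3 files each, and the labels name no genotype and no added agent. For H/R, cells deprived of serum and glucose (per the labels' protocol) were held at 1% O2, with 94% N2 and 5% CO2, for 1 h and reoxygenated in normoxia for 3 h. Before that all cells had been grown in a medium with 4500 mg/L glucose and 10% serum, and the labels do not say what medium the controls had during those hours. H9c2 is a clonal line of embryonic origin grown as a monolayer, so the measurements describe cultured myoblasts and not heart tissue. One protocol sentence in the labels names a mouse brain cortex as the source of the RNA, which conflicts with the rat cell line given everywhere else.

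The series' text speaks of 3 independent experiments per group, but replicates 2 and 3 of a group behaved as 2 scans of 1 array. Each such pair shared 36 spots flagged for an uneven background, against at most 1 in any other pair of files. Over the members, the median difference within such a pair was 0.02 on the log2 scale in both groups, whereas it was 0.16 to 0.18 when replicate 1 was compared with either of them. They were therefore averaged, which left 2 arrays per group. The p-values thus rest on array-to-array spread alone, and that spread may be technical. With 1 slide and a separate position for each array, group and slide position cannot be told apart. Between 58.4 and 71.1% of spots per file were well above background, the 2 highest shares being those of H/R replicates 2 and 3, and 0 were saturated. Of 13 cardiac markers on the array, 11 were well above background in all 6 files (Myl7 and Ryr2 in 0), with a summed level of 727 to 778% of the array's 75th percentile in controls and 1127 to 1174% in H/R. Of these, Tnnt2 (308% in controls and 678% in H/R) and Myh6 rose and Nppb fell. Among 9 skeletal myoblast markers, 7 were above background in all files, summing to 1130 to 1354% in controls and 686 to 934% in H/R, where Myod1, the myogenic regulator, fell by 1.48 (769% in controls and 274% in H/R) and Tnnt1 and Chrna1 rose. Of 7 leukocyte markers, Ptprc, Adgre1 and Itgam were above background in 0 files and Csf1r, Aif1 and Cd68 in all 6, summing to 29.2 to 45.4% in controls and 33.0 to 38.2% in H/R with 0 calls. Of 3 endothelial markers, Pecam1 and Cdh5 were above it in 0 files and Tek rose by 1.11. Of 5 brain markers, 3 including the neuronal Rbfox3 were above it in 0 files, and Gfap and Mbp were above it in all 6 with 0 calls. All 4 fibroblast or mesenchymal markers on the array were above it in all 6 files, and Pdgfrb rose. Their sums were the highest of these sets, at 7891 to 9499% in controls and 9515 to 10045% in H/R. Of 4 epithelial markers, Krt8 and Epcam were above it in all 6, with 0 calls. The epithelial sums were 403 to 442% in controls and 464 to 492% in H/R. The part of these shifts in the results below was not tested.

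RefSeq non-coding records cover several kinds of RNA. Some are structural: Terc is the RNA template that telomerase copies into telomere repeats, and Rpph1 is the catalytic RNA of RNase P, which trims the leader from precursor tRNAs. Some are long non-coding RNAs such as H19, the imprinted, maternally expressed RNA next to Igf2 that is abundant in fetal muscle, and Gas5, which hosts small nucleolar RNAs in its introns and whose spliced RNA is degraded when translated. Others are transcribed copies of coding genes or non-coding splice variants of them. XR_ records are predictions by a genome annotation pipeline and are revised from one release to the next.

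Of the 27 NR_ accessions 20 matched a gene in the RefSeq table of the GRCr8 assembly, and of the 1702 XR_ accessions 0 matched, so XR_ transcripts are given by accession only. RefSeq promoter sequences of GRCr8, running from 250 bases before to 50 bases after a gene's start, were given for 12 of the 20 genes. A promoter is shown for Abhd11-as1, the long non-coding RNA among the NR_ members that rose, and for Gas5, a bright long non-coding RNA whose level did not pass the test. The Abhd11-as1 window is chr12:27317406-27317705 and the Gas5 window is chr13:75836713-75837012, both on the + strand. Capitals mark matches on either strand to 5 motifs. They are the core of the hypoxia-inducible factor motif, spelled ACGTG, the CCAAT box, spelled as its name, the GC box bound by Sp1-type factors, spelled GGGCGG, the TATA box that positions transcription starts, spelled TATAAA, and the cyclic AMP response element bound by CREB, spelled TGACGTCA.
Abhd11-as1: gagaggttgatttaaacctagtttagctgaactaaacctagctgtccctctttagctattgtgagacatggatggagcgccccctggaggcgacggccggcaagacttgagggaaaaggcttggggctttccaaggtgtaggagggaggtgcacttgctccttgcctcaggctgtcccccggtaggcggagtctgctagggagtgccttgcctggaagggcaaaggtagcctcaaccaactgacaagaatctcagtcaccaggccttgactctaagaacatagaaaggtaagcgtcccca
Gas5: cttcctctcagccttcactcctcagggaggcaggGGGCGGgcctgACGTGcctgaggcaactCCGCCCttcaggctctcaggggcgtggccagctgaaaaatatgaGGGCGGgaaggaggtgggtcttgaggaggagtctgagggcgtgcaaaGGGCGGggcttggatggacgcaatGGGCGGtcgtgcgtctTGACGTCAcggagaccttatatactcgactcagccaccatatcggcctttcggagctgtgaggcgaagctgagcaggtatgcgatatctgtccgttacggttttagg
The Abhd11-as1 window held 0 matches to these 5 motifs. The Gas5 window held 1 hypoxia-inducible factor core, 5 GC boxes and 1 cyclic AMP response element, none of which overlapped another. Among all 33469 promoter windows of this length, 19.3% held the hypoxia-inducible factor core, 37.5% the CCAAT box, 33.1% the GC box, 14.2% the TATA box and 1.83% the cyclic AMP response element. In the RefSeq order of genes H19 lies next to Mir675, whose hairpin is processed from H19 RNA. Its mature arms are given with the seed, bases 2 to 8, in capitals, since no probe among the members measures them apart from H19.
rno-miR-675-5p: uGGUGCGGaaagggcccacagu
rno-miR-675-3p: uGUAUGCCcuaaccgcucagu
Their seeds differ, and the 5p and 3p arms lie at chr1:207161800-207161821 and chr1:207161766-207161786 of GRCr8 on the - strand.

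Values in each file are given in the order of replicates 1, 2 and 3. A probe was tested where it was well above background in all 3 files of at least 1 group. Signals are given as a percentage of the array's 75th percentile of probe signals, and changes as H/R minus control on the log2 scale, from limma with Benjamini-Hochberg adjustment over all 15899 probes tested and a threshold of 0.05. Of the NR_ probes 22 were tested, and 5 of them (22.7%) changed, 4 higher and 1 lower, beside 23.7% of all probes tested, with 14.8% higher and 8.87% lower. The NR_ transcripts that rose were Terc, Abhd11-as1, Rpph1 and a transcript known here only as NR_002597, and NR_002149 fell. H19 and Gas5, the 2 brightest NR_ transcripts, did not pass the test. Terc and Rpph1 were above background in 2 of 3 control files and Abhd11-as1 in 0 of 3, so these 3 rises entered the test only through H/R, the group in which they are high. When the fit was limited to probes above background in all 6 files, 19 NR_ probes remained, with 1 higher (NR_002597) and 1 lower (NR_002149), beside 25.5% of all probes in that fit.

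**Figure D1:**
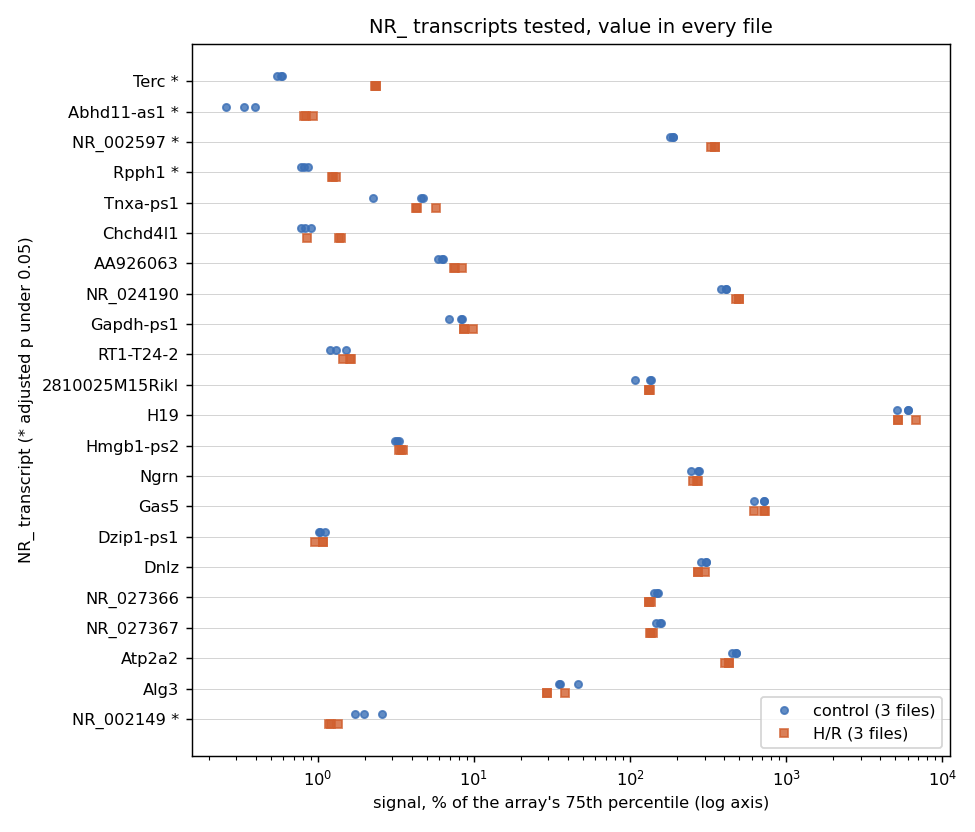
Signal of each tested NR_ transcript in every file, as a percentage of the array's 75th percentile on a log axis, with 3 control files as circles and 3 H/R files as squares, ordered by the change between groups. Terc at the top lay at 0.549 to 0.589% in controls and 2.33 to 2.36% in H/R, while H19 and Gas5 overlapped between groups.

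Among the structural RNAs, Terc (NR_001567) gave 0.549, 0.579 and 0.589% in the control files and 2.33, 2.34 and 2.36% in the H/R files. Every H/R file lay above every control file, and the spread within a group was small beside the gap between groups. Terc rose by 2.05 ± 0.09 (SE, 2 arrays per group), or 4.13-fold, with a limma adjusted p of 0.00182. Its probe was well above background in 2 of 3 control files and in all H/R files. With the background corrected by normexp instead, the change of Terc was 1.41, or 2.66-fold (limma adjusted p = 0.533). Rpph1 (NR_002703) read 0.784, 0.814 and 0.865% in controls and 1.26, 1.23 and 1.30% in H/R, again without overlap. It rose by 0.64 ± 0.09, or 1.56-fold (limma adjusted p = 0.0137), and was also above background in 2 of 3 control files. The RefSeq table gives this record the symbol Rpph1 but the biotype of the RNase MRP RNA and the synonym Rmrp, so which of these related RNAs the probe reads is not settled here. These were the only structural RNAs among the NR_ members, and both entered the test through the H/R files alone.

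Terc and Rpph1 act with protein partners, and those were read from lists made after the NR_ results were known. Of 8 telomerase and H/ACA ribonucleoprotein genes 5 were tested, of which 0 passed the test upward and 2 downward, beside 14.8% and 8.87% of all probes tested, and their median was -0.02. Tert, the reverse transcriptase that uses Terc, changed by 0.12 ± 0.10 (limma adjusted p = 0.400) at mean signals of 1.09% in controls and 1.19% in H/R. Nop10, a core H/ACA protein, fell by 0.56 ± 0.11 (limma adjusted p = 0.0255), and Shq1, an assembly factor for the same particles, fell by 0.36 ± 0.09 (limma adjusted p = 0.0473). All 3 H/R files lay below all control files for both. Of 10 RNase P and MRP protein genes 9 were tested and 0 passed the test, with a median change of -0.08. The largest departures in that group were Rpp25, at -0.34 ± 0.18, and Pop1, at -0.33 ± 0.10 (limma adjusted p = 0.225 and 0.0751).

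Abhd11-as1 (NR_026689), transcribed beside Abhd11, read 0.259, 0.395 and 0.336% in controls and 0.938, 0.835 and 0.816% in H/R. It was well above background in 0 of 3 control files and 3 of 3 H/R files, so its rise is given as an approximate bound of 1.77-fold. The limma adjusted p of 0.00911 belongs to the fitted change of 1.52, which used the dim control values, and does not test that bound. That bound sets the H/R mean against the dimmest signal well above background on each control array. It is not a strict limit, since a probe brighter than that signal was not always marked as above background. Rpph1 read 0.784 to 0.865% in controls and was above background in 2 of 3 control files. Abhd11 itself had no probe under that symbol.

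NR_002597 was the bright member of the group that rose, at 181, 189 and 189% in controls and 332, 351 and 351% in H/R. The groups were separate by far more than the spread within them, and the change was 0.88 ± 0.09, or 1.84-fold (limma adjusted p = 0.00658). NR_002149 read 2.57, 1.73 and 1.97% in controls and 1.35, 1.19 and 1.21% in H/R, a fall of 0.78 ± 0.18 (limma adjusted p = 0.0418). All H/R files lay below all control files, but the control files spanned a wider range than the gap between the groups. When the background was instead corrected with normexp, 0 of all 15899 probes tested passed the test, the NR_ probes included. The value for NR_002149 then turned to 0.80.

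All 5 calls kept their direction and passed the test when arrays were scaled to the median, by quantiles or by the 75th percentile over spots. In the log2 table the authors deposited, Rpph1 gave 0.44 and just missed the threshold (limma adjusted p = 0.0510).

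The rise of the dim NR_ members came beside a shift of dim probes in general. Over all tested probes in the dimmest signal quartile the median change was 0.18, against 0.01 in the brightest. Terc, Abhd11-as1 and Rpph1 lay at percentiles 7.86, 0.18 and 5.72 of signal, and the part of this shift in their changes was not tested. NR_002597 lay at the 74.6th percentile, where the quartile's median change was 0.03.

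The 5 calls rested on few arrays. Terc passed the test in every fit that left out an array or a scan. Without control replicate 1, Rpph1 and NR_002149 no longer passed, with values of 0.59 and -0.54. Without H/R replicate 1, Abhd11-as1 (limma adjusted p = 0.0536), Rpph1 (0.65) and NR_002149 (-0.86) did not pass; with H/R array 2 left out, NR_002597 (0.84), Rpph1 (0.63) and NR_002149 (-0.69) did not. NR_002149 was also lost without control replicate 3, at -0.73.

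H19 (NR_027324) was the brightest NR_ probe, at the 99.96th percentile of all tested probes, and the muscle-abundant imprinted RNA gave 5097, 6056 and 5998% in controls and 6734, 5176 and 5201% in H/R. The files of the groups overlapped, H/R replicate 1 being the highest and control replicate 1 the lowest. The change was 0.09 ± 0.17 (limma adjusted p = 0.712), with a 95% interval of -0.35 to 0.53, so a change within those limits was not excluded here. Igf2, the growth factor gene of the same imprinted domain, read 2115, 2409 and 2321% in controls and 3139, 2847 and 2912% in H/R without overlap, a difference of 0.43 ± 0.11 that just missed the threshold (limma adjusted p = 0.0517). The difference between the H19 and Igf2 changes was not tested.

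Gas5 (NR_002704), the only small nucleolar RNA host among the NR_ members, gave 617, 721 and 725% in controls and 618, 725 and 725% in H/R. In both groups array 1 was lower than array 2 by 0.23, and the group means differed by 0.00 ± 0.14 (limma adjusted p = 0.988, 95% interval -0.35 to 0.36). Zbtb37, its neighbour in the RefSeq order of genes, was dim at 0.82 to 1.01% in controls and 0.90 to 1.08% in H/R and changed by 0.15 ± 0.15 (limma adjusted p = 0.470). Under a median scaling, which moved the median of all probes from 0.07 to -0.06, Gas5 and H19 stood at -0.12 and -0.03, so their sign depends on the scaling.

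Of the lncRNA records 7 were tested and 1, Abhd11-as1, changed, beside 23.7% of all probes tested. AA926063, which lies between Daxx and Smim40 in the major histocompatibility region, read 5.92, 6.28 and 6.32% in controls and 8.41, 7.55 and 7.41% in H/R. Its groups did not overlap, but the change of 0.38 ± 0.11 did not pass the test (limma adjusted p = 0.0659). RT1-T24-2, a class I related record of the same region, changed by 0.20 ± 0.10 (limma adjusted p = 0.223), and 2810025M15Rikl by 0.14 ± 0.14. Chchd4l1 changed by 0.40 ± 0.25 with overlapping files, at 0.784 to 0.904% in controls and 0.851 to 1.40% in H/R. Over all NR_ probes tested, the files of the groups did not overlap for 11 of 22, beside 64.1% of all probes tested.

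The 4 transcribed pseudogenes and the 4 tested non-coding records of coding genes contained 0 calls, beside 23.7% of all probes tested. Gapdh-ps1 read 6.91, 8.25 and 8.33% in controls and 9.85, 8.57 and 8.65% in H/R, a difference of 0.28 ± 0.14 (limma adjusted p = 0.195). Its parent Gapdh, the glycolytic enzyme, changed by 0.07 ± 0.14. Tnxa-ps1, a tenascin X pseudogene next to Cyp21a1, differed by 0.61 ± 0.37, with control replicate 1 at 2.25% and the other 5 files at 4.23 to 5.73%. Hmgb1-ps2 was level, at 3.32, 3.13 and 3.22% in controls and 3.53, 3.32 and 3.41% in H/R (0.09 ± 0.09, limma adjusted p = 0.532). The parent Hmgb1, a chromatin protein that is also released as an alarm signal, fell from 208, 254 and 256% to 124, 144 and 141%, by 0.79 ± 0.14 (limma adjusted p = 0.0224). The difference between the Hmgb1-ps2 and Hmgb1 changes was not tested, and Dzip1-ps1 changed by -0.04 ± 0.11.

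The non-coding records of coding genes were set beside a probe for the mRNA of the same gene. Alg3, a mannosyltransferase of N-glycan assembly, gave -0.27 ± 0.20 for the non-coding record and -0.45 ± 0.15 for the mRNA (limma adjusted p = 0.359 and 0.0918). Atp2a2, the calcium pump of the sarcoplasmic reticulum known as SERCA2, gave -0.15 ± 0.10 and -0.17 ± 0.10. Ngrn gave 0.00 ± 0.10 and -0.12 ± 0.10, and Dnlz, a partner of the mitochondrial Hsp70 chaperone, -0.05 ± 0.11 and 0.10 ± 0.11. None of the 8 values given passed the test. The files hold no probe sequences, so whether a probe also binds the coding transcript or a near-identical copy was not tested.

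**Figure D2:**
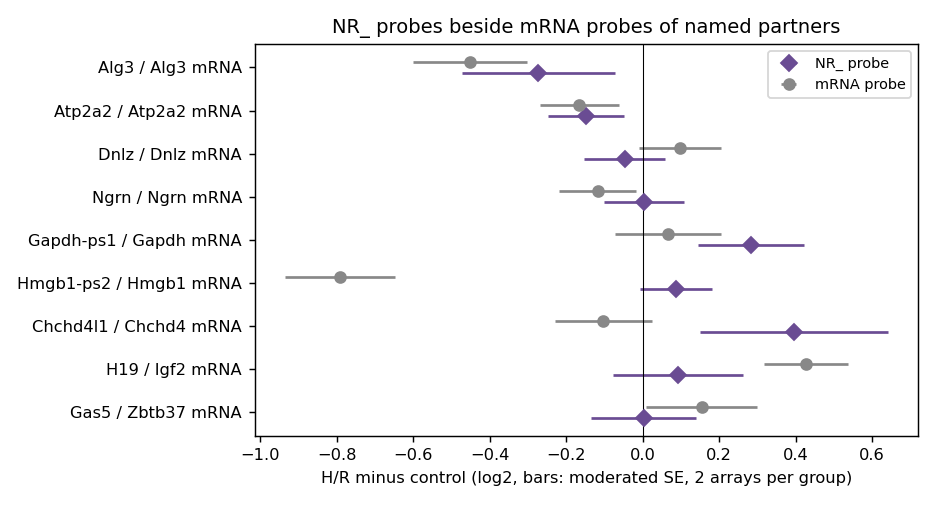
Change of NR_ probes (diamonds) and of the mRNA probe of their gene, parent gene or neighbour (circles), H/R minus control on the log2 scale with moderated standard errors from 2 arrays per group. Hmgb1 mRNA at -0.79 is the only point past the threshold, while Hmgb1-ps2 lay at 0.09.

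The other 3 tested NR_ records without a symbol also did not pass the test. NR_024190 read 381, 410 and 413% in controls and 476, 495 and 497% in H/R, separate in every file (0.30 ± 0.10, limma adjusted p = 0.0909). NR_027366 and NR_027367 had nearly the same values as each other, at 132 to 157% over both groups and changes of -0.12 ± 0.09 and -0.13 ± 0.10. The 5 NR_ probes that were not tested were dim in all files, with no value above 0.88%. They were Oprm1, the mu opioid receptor gene, E230034O05Rik, CB741658, NR_027235 and NR_002706.

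The XR_ transcripts were at the median as dim as the NR_ ones. The median signal of the tested probes was 17.5% of the array's 75th percentile for either class, beside 35.4% over all probes, 69.3% for coding probes (NM_ and XM_ accessions) and 6.06% for lncRNA probes with an MR prefix. Of the 1702 XR_ probes 947 (55.6%) were well above background in all 6 files and 473 (27.8%) in 0. The share above background in a single file was 57.3, 60.3 and 61.9% for the control files and 60.5, 71.6 and 69.8% for the H/R files. Above background in all H/R files and in 0 control files were 21 XR_ probes, and 1 showed the opposite, beside 302 and 8 of all probes. The first count is 1.23% of XR_ probes and 1.22% of all probes. The higher share in H/R was seen on its array 2 only, and its part in these counts was not tested.

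Of 1032 XR_ probes tested, 153 (14.8%) changed, 99 higher and 54 lower, beside 23.7% of all probes tested. Changes of at least 2-fold numbered 35 (3.39%), 19 higher and 16 lower, beside 5.64% of all probes. Limited to the 947 XR_ probes above background in all 6 files, 92 were higher and 56 lower (15.6%), beside 25.5% of all probes in that fit. The median change was 0.11, beside 0.07 over all probes, and the central 90% of XR_ changes lay between -0.61 and 0.66. The typical size of a change, whatever its sign, was 0.22 for XR_ probes, 0.26 for all and 0.27 for coding probes. Groups did not overlap for 535 (51.8%), beside 64.1% of all probes. The median difference between the arrays of a group was 0.18 in controls and 0.16 in H/R for XR_ probes, and 0.13 and 0.11 for coding probes.

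The direction of the XR_ calls followed the scaling of the arrays. Scaling to the median gave 56 higher and 101 lower (15.2%, beside 24.0% of all probes tested). Quantile normalization gave 64 and 64 (12.4%, beside 23.2%), and the 75th percentile over spots 79 and 66 (14.1%, beside 22.5%). The log2 table the authors deposited gave 53 and 58 (9.43% of its 1177 XR_ probes, beside 18.9% of its 16841 probes). The median change of all probes in these settings was -0.059, 0.0038, 0.020 and -0.0037, in that order. The XR_ median stood 0.04 above that of all probes under median scaling. It stood 0.02 and 0.01 above it with quantile normalization and the deposited table. The number of calls also rested on single arrays. It fell for XR_ probes and for all probes alike without control replicate 1, control array 2, H/R replicate 1 or H/R array 2. Each of these fits left 1 array in a group. Their XR_ median changes were 0.05, 0.14, 0.12 and 0.08, beside 0.05, 0.08, 0.07 and 0.07 over all probes.

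**Figure D3:**
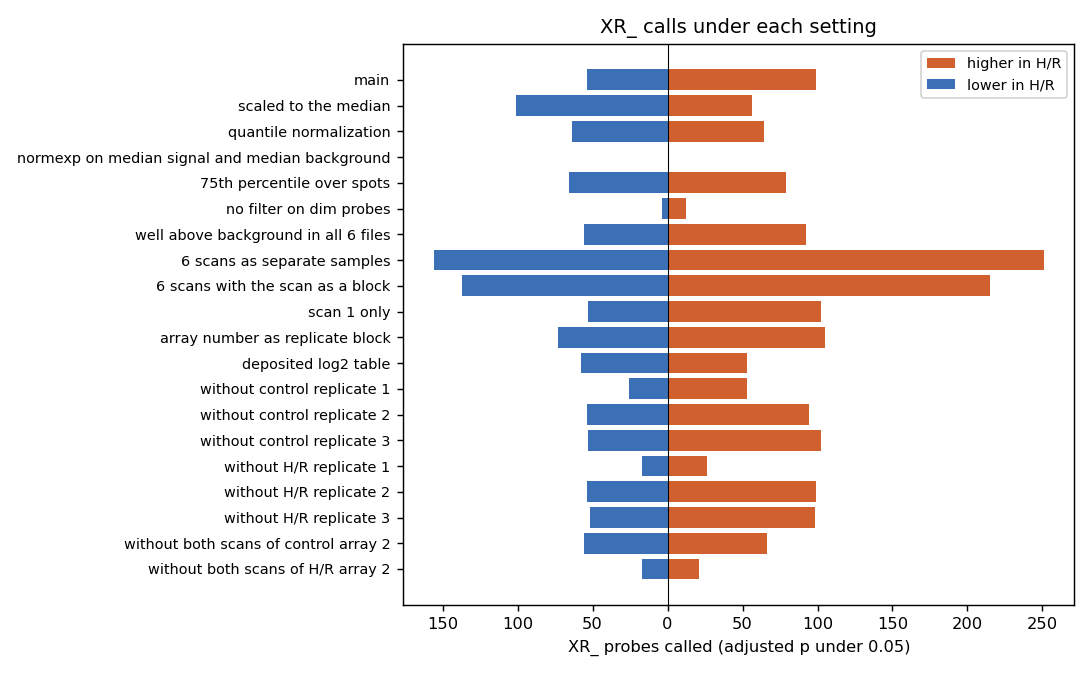
Number of XR_ probes called higher (right) and lower (left) in H/R at an adjusted p under 0.05 under each setting. The split of 99 higher and 54 lower turned to 56 and 101 when arrays were scaled to the median. These were 14.8 and 15.2% of XR_ probes tested, beside 23.7 and 24.0% of all probes tested. Normexp background correction left 0 calls among XR_ probes and 0 among all probes tested.

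Values in every file are given for the XR_ transcripts with the 2 largest rises and the 2 largest falls among probes well above background in all 6 files. XR_009186 rose from 29.0, 29.7 and 29.6% in controls to 105, 108 and 107% in H/R, by 1.86 ± 0.09 or 3.63-fold (limma adjusted p = 0.00183). XR_008260 rose from 10.8, 19.3 and 19.6% to 52.4, 61.6 and 63.3%, by 1.98 ± 0.30 or 3.95-fold (limma adjusted p = 0.0142). The first was even within each group, while control array 1 of the second was well below control array 2. XR_007238 fell from 27.1, 27.5 and 27.3% to 8.12, 7.69 and 7.54%, by 1.79 ± 0.09 (limma adjusted p = 0.00183). XR_008636 fell from 3.87, 3.32 and 3.23% to 0.885, 1.61 and 1.56%, by 1.59 ± 0.29 (limma adjusted p = 0.0229). In all 4 cases the files of the groups were separate. XR_009186 and XR_007238 passed the test in every fit that left out an array or a scan. XR_008260 did not pass without H/R replicate 1 (2.11) or without H/R array 2 (1.86), and XR_008636 did not without control replicate 1 (-1.47) or control array 2 (-1.71).

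The 8 largest rises and 8 largest falls among XR_ probes with separate groups differed in how far they stood above background. Of the rises 4 were well above it in all 6 files, with changes of 1.53 to 1.98. The other 4 were above it in 0 control files and are given as approximate bounds of 2.16-fold to 2.58-fold. Of the falls 6 were above background in all 6 files, with falls of 1.32 to 1.79. Another 1 was above it in 2 of 3 H/R files, and 1 was above it in 0 H/R files, an approximate bound of 2.36-fold. As for Abhd11-as1, these bounds are not strict limits. The files do not pair these accessions with gene names.

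**Figure D4:**
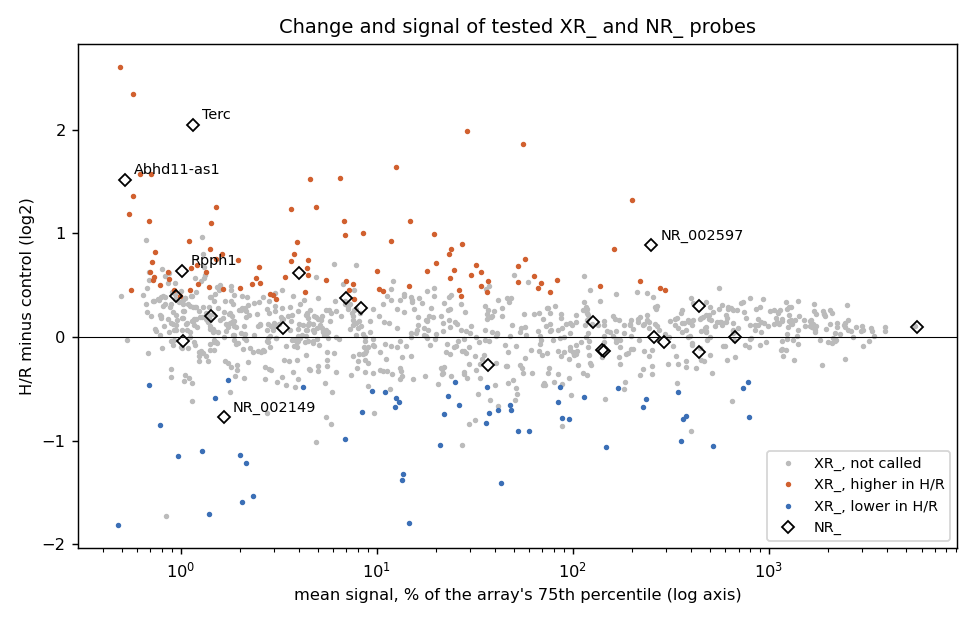
Change of each tested XR_ (dots) and NR_ (diamonds) probe, H/R minus control on the log2 scale, against its mean signal as a percentage of the array's 75th percentile on a log axis. Calls thin out toward the bright end, where 10 of 212 XR_ probes of the brightest quartile were called. H19 lies at the far right, near the brightest XR_ probes, with a change of 0.09.

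XR_ calls were unevenly spread over signal. Quartiles of signal were set over all probes tested, and from dimmest to brightest 17.7, 18.7, 15.3 and 4.72% of XR_ probes were called. The same quartiles held 25.1, 32.1, 29.8 and 17.4% of coding probes and 15.0, 23.2, 29.3 and 21.8% of MR-prefixed lncRNA probes. In the dimmest quartile 40 XR_ probes were higher and 12 lower, and in the brightest 2 were higher and 8 lower. Over all probes tested the corresponding counts were 656 higher and 168 lower in the dimmest and 308 and 363 in the brightest quartile. Of all 153 XR_ calls, 127 were above background in all 6 files, 12 in 0 control files and 1 in 0 H/R files. Of 3769 calls over all probes, the corresponding numbers were 3413, 178 and 8. The part of this filter in the directions by quartile was not tested. The typical size of change fell from 0.28 in the dimmest to 0.14 in the brightest quartile for XR_ probes, and from 0.34 to 0.19 for coding probes. The 5 brightest XR_ probes, at 3353 to 5588%, changed by 0.01 to 0.11 and 0 of them passed the test.

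**Figure D5:**
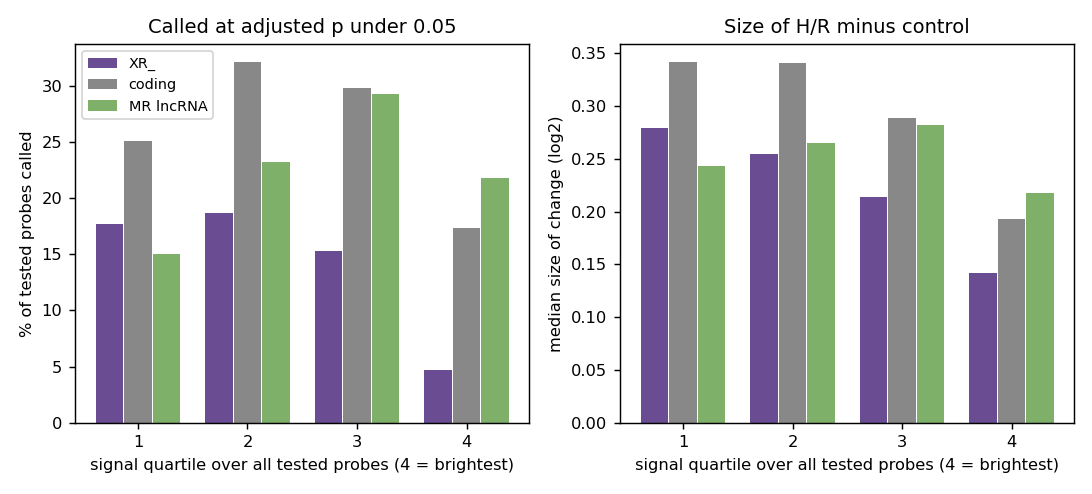
Share of tested probes called (left) and median size of the change on the log2 scale (right) by quartile of signal, for XR_, coding and MR-prefixed lncRNA probes. XR_ bars lie below coding bars in all 4 quartiles, with 4.72% against 17.4% called in the brightest.

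In the brightest quartile the arrays of a group also differed from one another. Control array 1 lay below control array 2 in 86.3% of the 212 XR_ probes, with a median difference of -0.18, and H/R array 1 lay above H/R array 2 by a median of 0.05. Coding probes of that quartile had the same signs, at -0.10 and 0.04. The median change between groups there was 0.11 for XR_ and 0.00 for coding probes, and the part of the array difference in it was not tested.

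Set side by side, NR_ and XR_ probes had medians of change of 0.12 and 0.11, a difference of 0.01. The share called was 22.7% of 22 NR_ and 14.8% of 1032 XR_ probes, and this difference was not tested because the members were chosen with results known. Terc, Abhd11-as1 and Rpph1, called among the NR_ probes, entered the test only through H/R. Among probes above background in all 6 files, 2 of 19 NR_ and 148 of 947 XR_ probes passed, beside 25.5% of all probes in that fit. The median level of NR_ probes stood above that of XR_ probes by 0.13 and 0.05 in control arrays 1 and 2 and by 0.10 in H/R array 1, and at -0.17 in H/R array 2. These 4 values vary by as much as they differ between groups.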

How the data were processed

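RNA of control and H/R cells was labelled with Cy3 after removal of ribosomal RNA, per the labels' protocols, and measured on 1-colour arrays. The scanner files the authors deposited hold an intensity per spot, per the file headers corrected for background on each array and left unscaled across arrays, made with Agilent Feature Extraction 11.0.1.1 per the submitters' processing notes. Flags in the deposited files, another kind of value coded 0 or 1, mark outliers, saturation and spots well above background. A deposited table by the authors gives log2 values of 16841 probes, and no source used here names its normalization; its columns had medians of 9.18 to 9.19 and followed the log2 scanner values across probes at r of at least 0.9998, so it is uncentred.

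Control spots and outliers were dropped, log2 values of a probe's spots were averaged, and each array's 75th percentile over probes was subtracted. Probes with a usable spot in each file numbered 24578 of 24684, and 19 XR_ probes lacked one. Replicates 2 and 3 of a group were averaged, and 2 arrays were compared with 2 by lmFit and eBayes (limma 3.58.1, R 4.3.3), two-sided, leaving 2 residual degrees of freedom (prior 2.86). The number of arrays limits the precision. The fit was tested on simulated data in which 200 of 15899 probes changed. It recovered 0, 44, 80 and 92% of log2 changes of 0.5, 1, 2 and 3, with 2 false among 110 calls. Far fewer probes changed there than were called in the data, so these shares do not carry over directly. Tables were handled with Python 3.11.15 and pandas 2.3.3 and figures drawn with matplotlib 3.10.9.

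The members, lists and partner genes were chosen with earlier results of these data known. The named members are, for NR_ and XR_ separately, up to 8 largest rises and 8 largest falls past the threshold with separate groups, plus tested members of lists of snoRNA hosts, imprinted, nuclear and structural RNAs and microRNA genes. Those lists held 1 snoRNA host (Gas5), 1 imprinted RNA (H19), 2 structural RNAs (Terc, Rpph1) and 0 NR_ members of the other kinds. Other NR_ members are given to account for all 27, and 2 XR_ transcripts per direction are shown. Alternatives changed the scaling, background correction, filter, use of scans and block, and left out arrays.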

Additional observations from a re-analysis of the deposited data

How the results depend on the processing

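Main counts were 158 members, 153 XR_ and 5 NR_. The planned normexp correction needs mean signals, which the files analysed here do not hold, so it was run on median signals, an alternative chosen after seeing the data, as was the percentile over spots. With normexp 0 of all 15899 probes passed, and so 0 members, 0 XR_ and 0 NR_. At an unadjusted p under 0.05 there were 74, 73 and 1, against 283, 276 and 7 in the reported fit. Over all probes the numbers at that unadjusted p were 2044 and 6309. The NR_ minus XR_ median became 0.30. Without a filter on dim probes 17 members passed (16 XR_, 1 NR_), beside 594 (2.42%) of all 24578 probes tested. The share of XR_ probes was 0.951%. Among probes above background in all 6 files 2 of 19 NR_ passed, beside 25.5% of all probes in that fit. Treating the 6 scans as separate samples gave 416 (407 XR_, 9 NR_), beside 52.3% of all probes. Adding the scan as a block gave 359 (352 XR_, 7 NR_), beside 46.7% of all probes. With 2 arrays a group, both numbers' deviations correlate at the same r of 0.15 by construction, so pairing was not established. With the array number as a replicate block 178 XR_ and 5 NR_ passed, beside 24.4% of all probes. Of the 153 XR_ calls 137 were kept with that block. Median scaling kept 110, quantile normalization 117, the percentile over spots 133 and the fit above background in all 6 files 127. The deposited table kept 100, the fit without a filter 15 and normexp 0, while each fit of 6 scans kept 153. Leaving out arrays or scans gave 40 to 159 members, 38 to 155 XR_ and 2 to 6 NR_. The 5 NR_ calls kept their direction in each alternative that tested them (Terc, Abhd11-as1 and Rpph1 were not tested among probes above background in all 6 files), except NR_002149, at 0.80 with normexp. With normexp 4 of the XR_ falls also turned, to 0.41, 0.95, 0.51 and 0.47 (the last XR_008636). Uncalled NR_ values near 0 changed sign. Under median scaling Gas5 stood at -0.12, H19 at -0.035, Hmgb1-ps2 at -0.041 and Ngrn at -0.12. With normexp Gas5 was -0.13, H19 -0.0059, Ngrn -0.067 and Dzip1-ps1 1.04. By the percentile over spots Gas5 and Ngrn were both -0.045. With 6 scans, blocked or not, H19 was -0.010 and Ngrn -0.0030. Quantile normalization gave Hmgb1-ps2 -0.049 and Ngrn -0.0019, and the deposited table -0.052 and -0.0023. Leave-outs ranged from -0.019 to 0.30 for 2810025M15Rikl, -0.11 to 0.018 for Dnlz, -0.12 to 0.045 for Dzip1-ps1, -0.11 to 0.12 for Gas5, -0.10 to 0.28 for H19 and -0.066 to 0.073 for Ngrn. The causes were not tested. Signal over background limits the dim members: 473 XR_ and 2 NR_ probes were above it in 0 files.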

Other observations

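The brightest XR_ probes were set beside 67 probes for ribosomal protein mRNAs, a set picked after the values were seen. The ribosomal protein probes had a median signal of 3117% of the array's 75th percentile. For them control array 1 lay below control array 2 by a median of -0.23, H/R array 1 above H/R array 2 by 0.15, and the median change between groups was 0.12 with 0 calls. The XR_ probes of the brightest signal quartile had a median signal of 799.7%, with corresponding values of -0.18, 0.05 and 0.11 and 10 calls.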
